A study of Brassica napus with 30 samples.

Results

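The block described here is a run of 874 neighbouring gene models in the middle of chromosome A05 of oilseed rape (Brassica napus). In genotypes JY1621 and JY1605, its share of the counts was lowest in seeds imbibed for 36 h at 25 °C. After 8 h at 8 °C the mean share of the block stayed near that of dry seeds. It was 0.687% against 0.692% in JY1621 and 0.603% against 0.635% in JY1605. The members of the block are the 1131st to the 2004th of the 3226 A05 gene models that reached a level of 0.531 CPM (a model's count scaled to a fixed total per library) in at least 3 of 30 seed libraries, sorted by ID. They run from BnaA05G0191400ZS to BnaA05G0310000ZS, out of 57945 gene models tested over the whole genome. The members were chosen by their measured change between dry and imbibed seeds in these libraries, which set the limits of the run. The comparisons of conditions below therefore describe the members and do not test whether the block stands apart. The working name of the block is a fall at germination. By the calls defined below, it held at 36 h and 25 °C for 645 members in JY1621 (20% of all tested models). There 58 members moved the other way (26.2% of all tested models). In JY1605 it held for 861 members (24.8% of all tested models).

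Dry seeds carry messenger RNAs that were made and stored while the seed matured on the mother plant. After water uptake (imbibition), stored transcripts are translated or broken down while new transcription begins, and the mix of transcripts shifts within hours. Oilseed rape carries an A and a C subgenome, inherited from relatives of Brassica rapa and Brassica oleracea, so most genes of A05 have related copies elsewhere in the genome. The IDs carry the chromosome and the order along it. They could not be paired with gene names or functions, and members are described by place, level and change.

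Whole seeds of genotypes JY1621 and JY1605 were sampled in 5 conditions, with 3 libraries of each genotype in each condition. These were dry seeds taken at zeitgeber time 0, seeds imbibed for 8 h at 8 °C or 25 °C and taken at zeitgeber time 8, and seeds imbibed for 36 h at 8 °C or 25 °C and taken at zeitgeber time 12. Each RNA sample came from 100 pooled seeds, per the labels, which name no allele, transgene or added agent. Time since imbibition and time of day changed together and cannot be told apart in comparisons with dry seeds. Whether the libraries of a group came from separate seed lots was not given in the sources used here, so p-values measure the spread between these libraries only. With no gene names, the labelled tissue was not checked against marker genes.

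Total counts ran from 14250480 to 78251632 per library. Pearson correlations of log2 CPM between libraries of a group ran from 0.990 to 0.996. Between the first and the last member the ID order holds 1187 gene models, of which 874 (73.6%) were tested. On the rest of A05, 2352 of 3815 (61.7%) were tested, and 57.4% of all 100919. The 313 models of the span that stayed under the minimum are described at the end, and 130 of them had no count in any library. Of the members, 320 reached the minimum in all 3 libraries of every group. The number that did so was 321 in JY1605 at 36 h and 25 °C, and 729 to 840 in each of the other 9 groups. The members are thus the models of the span that passed a filter, many of them through groups other than that one.

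The block held a small share of each library's counts, and that share was lowest after 36 h at 25 °C. In JY1621 the share was 0.707%, 0.665% and 0.705% in dry seeds, 0.722%, 0.649% and 0.690% in the 8 h 8 °C libraries, and 0.633%, 0.608% and 0.599% after 8 h at 25 °C. After 36 h it was 0.629%, 0.652% and 0.503% at 8 °C and 0.387%, 0.443% and 0.430% at 25 °C. The JY1621 libraries at 36 h and 25 °C all lay below those of the other 4 JY1621 groups. In JY1605 the share was 0.640%, 0.644% and 0.621% in dry seeds, 0.614%, 0.603% and 0.593% in the 8 h 8 °C libraries, and 0.280%, 0.357% and 0.255% after 8 h at 25 °C. After 36 h it was 0.259%, 0.369% and 0.202% at 8 °C and 0.0599%, 0.0713% and 0.0609% at 25 °C. The JY1605 libraries at 36 h and 25 °C did not overlap with any other group, while those at 8 h and 25 °C overlapped with those at 36 h and 8 °C. The mean share at 36 h and 25 °C stood at 60.6% of the dry-seed mean in JY1621 and at 10.1% in JY1605. In whole seeds, fewer cells of a type and less RNA per cell cannot be told apart.

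**Figure D1:**
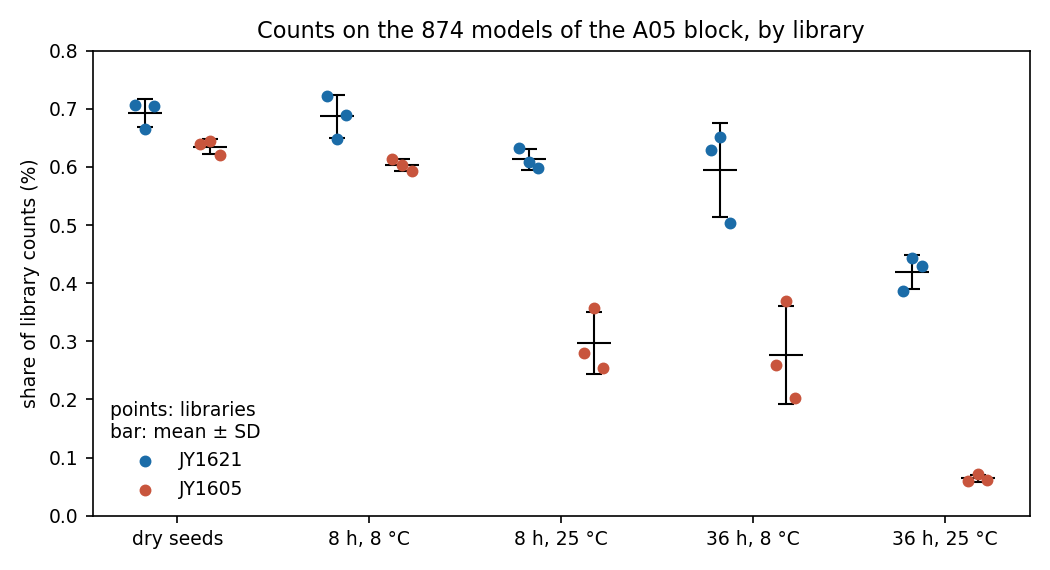
Share of each library's counts on the 874 members of the A05 block (vertical axis, percent of all counts), by condition (horizontal axis) for JY1621 (blue) and JY1605 (red). Points are libraries and black bars the mean ± SD (n = 3); JY1605 at 36 h and 25 °C sits between 0.0599% and 0.0713%, below every other library.

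Set against dry seeds, most members were lower in JY1621 after 36 h at 25 °C. A model was called when the edgeR quasi-likelihood test gave an adjusted p under 0.05 over all tested models and the level differed at least 2-fold (1 on the log2 scale). After 36 h at 25 °C, 645 members were called lower (20% of all tested models) and 58 higher (26.2%), with a median log2 fold change over the members of -1.28 against 0.18 over all tested models. After 8 h at 25 °C, 130 were called lower (19.4% of all tested) and 58 higher (22.2%), with a median of -0.72. After 36 h at 8 °C, 146 were called lower (22.1% of all tested) and 54 higher (25.5%), with a median of -0.74. These 2 shares of lower calls, 14.9% and 16.7% of the members, lie below the background. Many members in these comparisons lay inside the fold minimum: by adjusted p alone, the lower members numbered 623 in the 8 h 25 °C comparison (32% of all tested models by the same rule) and 656 in that of 36 h at 8 °C (33.7% of all tested). After 8 h at 8 °C, 2 members were called lower (0.48% of all tested) and 22 higher (6.01%), with a median of -0.19. The 2 became 0 without dry replicate 2 and 4 without 8 h 8 °C replicate 1. The 22 became 14 without any 1 of dry replicates 1 and 2 and 8 h 8 °C replicates 2 and 3.

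In JY1605 most members were lower than dry seeds after 8 h at 25 °C, and nearly every member after 36 h. After 8 h at 25 °C, 778 members were called lower, where 20.8% of all tested models were, with a median log2 fold change of -1.68 against 0.15 over all tested models. After 36 h at 25 °C, 861 were called lower (24.8% of all tested) with a median of -3.86 against 0.36, and 873 of the 874 had a negative fold change. After 36 h at 8 °C, 784 were called lower (23.7% of all tested), with a median of -1.65 against 0.10. After 8 h at 8 °C, 27 were (0.423% of all tested), with a median of -0.14, and 137 were lower by adjusted p alone (4.35% of all tested).

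The size of these changes depends on the scaling between libraries. The values above use TMM factors, which set the bulk of gene models level. Scaling by library size alone moved the median log2 fold change of all tested models in JY1621 by 0.49 in the 8 h 25 °C comparison, 0.49 in that of 36 h at 25 °C and 0.50 in that of 36 h at 8 °C. In JY1605 it moved it by 0.66, 0.65 and 0.55 in the same conditions. A scaling factor shifts all models of a library alike, so the distance of the members from the other models changes little by construction. The median of the members minus that of all tested models was -1.46 in JY1621 and -4.23 in JY1605 at 36 h and 25 °C. Scaled by library size alone, 13 members were called lower than dry seeds (11.3% of all tested models under this scaling) and 66 higher (33.3%) in the JY1621 8 h 25 °C comparison. In that of 36 h at 25 °C, 226 were lower (11.7% of all tested) and 65 higher (37.9%), and in that of 36 h at 8 °C, 24 were lower (14.6%) and 62 higher (36%). In JY1605 under this scaling, the lower calls numbered 433 in the 8 h 25 °C comparison (10.8% of all tested), 838 in that of 36 h at 25 °C (17.6%) and 490 in that of 36 h at 8 °C (14.5%). In the 8 h 8 °C comparison, 28 were called higher in JY1621 (8.22% of all tested) and 17 lower in JY1605 (0.307%). The JY1621 median of the members in that comparison was 0.0061 under this scaling, which moved the median of all tested models by 0.17. The medians of the members in JY1621 were -0.21, -0.79 and -0.24 after 8 h at 25 °C, 36 h at 25 °C and 36 h at 8 °C, and those in JY1605 -1.01, -3.21 and -1.10.

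Most members lay close to one another, and a minority lay apart. In JY1621 at 36 h and 25 °C, 90.7% of the members had a log2 fold change within 1 of the block's median, against 51.6% of the other tested A05 models around theirs. In JY1605 these were 84.4% of the members and 39.8% of the other A05 models. The interquartile range of the log2 fold changes was 0.52 among the members and 1.92 among the other A05 models in JY1621, and 0.82 and 2.79 in JY1605. From the 5th to the 95th percentile, the log2 fold changes of the members ran from -1.92 to 1.72 in JY1621 and from -4.94 to -1.97 in JY1605. Since the block was chosen on this change, its spread is a description.

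**Figure D2:**
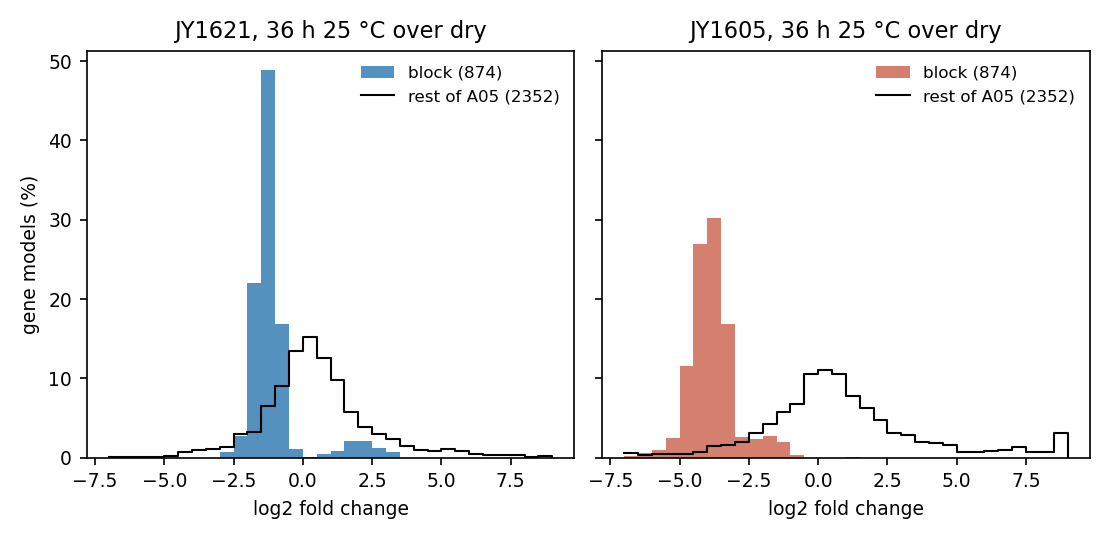
Log2 fold change of 36 h 25 °C over dry seeds (horizontal axis) for the 874 members (bars) and the other 2352 tested A05 models (black outline), as percent of each set (vertical axis), in JY1621 (left) and JY1605 (right). The end bins pool more extreme values; most members form a peak around -1.28 in JY1621 and -3.86 in JY1605, with a small group above 0 in JY1621 and a tail towards 0 in JY1605.

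Along the chromosome the change began and ended within a few gene models. The 50 tested models before the block had a median log2 fold change at 36 h and 25 °C of 0.45 in JY1621 and 0.65 in JY1605. The first 50 members had -1.29 in JY1621 and -3.98 in JY1605. At the far end the last 50 members had -1.25 in JY1621 and -3.86 in JY1605, and the 50 models after them had 0.14 in JY1621 and 0.63 in JY1605. In 34 consecutive stretches of 25 members, the median stayed between -1.50 and -1.02 in JY1621 and between -4.24 and -3.61 in JY1605. The 93 stretches of 25 models on the rest of A05 had medians between -0.44 and 1.54 in JY1621 and between -0.75 and 2.35 in JY1605. In 10 equal lengths of the block, the median ran from -1.33 to -1.14 in JY1621 and from -4.09 to -3.70 in JY1605.

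The limits by rank are not exact. The first member, BnaA05G0191400ZS, stood in JY1621 at 0.828 ± 0.225 TMM-scaled CPM at 36 h and 25 °C and 2.21 ± 0.0665 in dry seeds (SD, n = 3). In JY1605 it stood at 0.202 ± 0.0445 at 36 h and 25 °C and 4.22 ± 0.669 in dry seeds. Its log2 fold change was -1.35 in JY1621 and -4.31 in JY1605. The tested model just before it, outside the block, had -1.53 in JY1621 and -4.54 in JY1605, and the model before that 1.47 and 1.02. The last member, BnaA05G0310000ZS, stood in JY1621 at 1.14 ± 0.0974 TMM-scaled CPM at 36 h and 25 °C and 2.37 ± 0.611 in dry seeds. In JY1605 it stood at 0.138 ± 0.0898 at 36 h and 25 °C and 2.13 ± 0.610 in dry seeds. Its log2 fold change was -1.07 in JY1621 and -3.94 in JY1605. The model just after it, outside the block, had -0.76 in JY1621 and -3.41 in JY1605, and the next 2.45 and 2.57. The model next to the block on either side thus has values like those of the members.

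**Figure D3:**
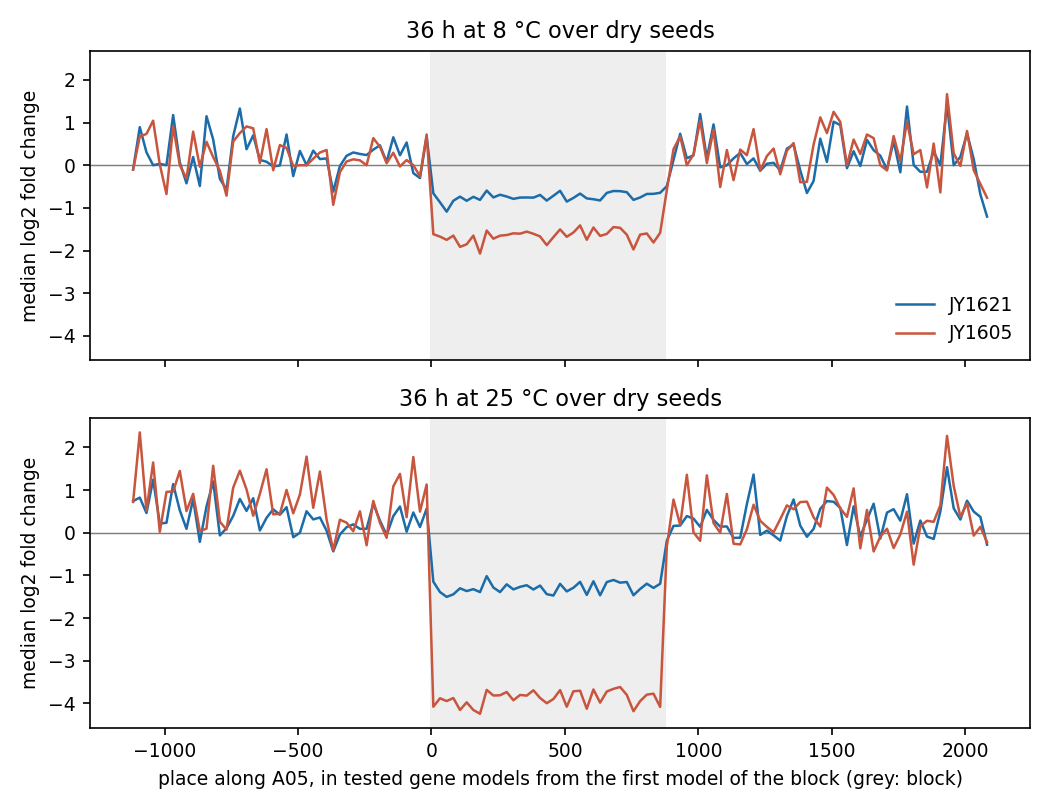
Median log2 fold change over dry seeds (vertical axis) in stretches of 25 tested gene models along A05 (horizontal axis, place in tested models from the first member; grey marks the block), after 36 h at 8 °C (top) and 25 °C (bottom), for JY1621 (blue) and JY1605 (red). Within the block the curves are flat, between -1.50 and -1.02 in JY1621 and between -4.24 and -3.61 in JY1605 at 25 °C.

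At a given sampling time, which leaves time of day aside, the members were slightly higher at 8 °C than at 25 °C in JY1621 and several-fold higher in JY1605. In JY1621 at 8 h, 30 members were called higher at 8 °C (16.9% of all tested models) and 21 lower (16.4%), with a median log2 fold change of 0.50 against 0.0096 over all tested models. At 36 h, 24 were called higher (14.3% of all tested), with a median of 0.51. These shares of members lie below the background, and by adjusted p alone 455 members were higher at 8 °C at 8 h (29.6% of all tested by the same rule) and 479 at 36 h (30.5%). The 30 and 21 became 17 and 13 without 8 h 8 °C replicate 1, and the 30 became 51 without replicate 2. With library size scaling, which moved the median of all tested models by -0.24, they were 10 higher (11.8% of all tested) and 33 lower (23.6%), and the median of the members was 0.19. The 24 became 42 without 36 h 8 °C replicate 3, and DESeq2 gave 15. In JY1605 at 8 h, 777 members were called higher at 8 °C (20% of all tested), with a median of 1.62 against -0.08 over all tested models. With library size scaling, which moved the median of all tested models by -0.56, the count was 515 (11.1% of all tested) and the median 1.05. At 36 h, 850 were called higher (28.7% of all tested), with a median of 2.18 against -0.07.

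Between the genotypes, the medians of the members stood level in dry seeds and in the 8 h 8 °C groups, and apart in the 8 h 25 °C groups and in both pairs of 36 h groups. In dry seeds, 19 members were called higher in JY1621 than in JY1605 (10.8% of all tested models) and 16 lower (9.52%), with a median log2 fold change of 0.0014. After 8 h at 8 °C, 14 were called higher in JY1621 (12.1% of all tested), with a median of 0.0042. After 8 h at 25 °C, 594 were called higher in JY1621 (12.9% of all tested), with a median of 1.10 against -0.0069 over all tested models. After 36 h at 8 °C, 543 were called higher (12.1% of all tested), with a median of 1.07. After 36 h at 25 °C, 868 were called higher (21.1% of all tested), with a median of 2.76 against -0.13. The dry-seed count became 29 without JY1605 dry replicate 3, 36 without JY1621 dry replicate 2, and 36 higher (12.2% of all tested) and 15 lower (8.42%) with library size scaling. The 14 became 9 without JY1605 8 h 8 °C replicate 3 and 5 without JY1621 8 h 8 °C replicate 1. The 543 became 266 without JY1605 36 h 8 °C replicate 3. Without JY1605 36 h 8 °C replicate 2 it was 736.

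The change from dry seeds differed between the genotypes, by calls on the difference of the log2 changes. The members were chosen on their change from dry seeds, which enters this difference, so these counts describe the members. In JY1621 minus JY1605, 853 members had a called positive difference of log2 changes at 36 h and 25 °C (18.7% of all tested models), with a median difference of 2.72. The count was 468 at 8 h and 25 °C (7.19% of all tested), with a median of 1.13, and 1 member had a called negative difference (7.07%). It was 433 at 36 h and 8 °C (5.76% of all tested), with a median of 1.10. At 8 h and 8 °C the median difference was 0.04, and 1 member had a called positive difference (1.19% of all tested) and 3 a called negative one (0.395%). The 1 became 0 without JY1605 8 h 8 °C replicate 2 or 3 or JY1621 8 h 8 °C replicate 3, and 2 without JY1621 dry replicate 3 or JY1621 8 h 8 °C replicate 1 or 2.

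The members covered a range of levels that held few high values. From the 5th to the 95th percentile, the mean level over all 30 libraries ran from 0.533 to 15.9 TMM-scaled CPM among the members. In the other tested A05 models it ran from 0.238 to 65.1. Above 50 TMM-scaled CPM there were 4 members and 158 of the other A05 models, and the highest levels were 91.3 and 6799. CPM is not per transcript length, so a ranking of models by level is one by counts and not by number of transcripts. Dry-seed levels in log2 correlated between the genotypes across the 874 members at 0.948 (Pearson), and across the other A05 models at 0.938. Gene models are not independent, and all points share the same 6 dry-seed libraries.

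The member with the highest mean CPM shows the course of the block with the least counting error. BnaA05G0304400ZS, the 1979th tested model of A05, stood in JY1621 at 136, 142 and 140 TMM-scaled CPM in dry seeds, at 128, 129 and 140 in the 8 h 8 °C libraries, and at 106, 94.98 and 99.1 after 8 h at 25 °C. After 36 h it stood at 94.9, 95.9 and 84.8 at 8 °C and at 55.1, 79.1 and 77.2 at 25 °C. At 25 °C the JY1621 libraries of dry seeds, 8 h and 36 h did not overlap. In JY1605 it stood at 127, 147 and 142 in dry seeds, at 134, 124 and 121 in the 8 h 8 °C libraries, and at 56.7, 56.1 and 40.7 after 8 h at 25 °C. After 36 h it stood at 48.7, 62.7 and 37.5 at 8 °C and at 12.4, 15 and 10.2 at 25 °C. The JY1605 libraries at 36 h and 25 °C rest on 361, 592 and 282 counts, and each lies under every other library. The log2 fold change of 36 h at 25 °C over dry seeds was -0.99 ± 0.154 in JY1621 and -3.46 ± 0.172 in JY1605 (SE), given without a test because this contrast chose the block. The JY1621 value lay just inside the fold minimum, and was -1.01, past it, with DESeq2 and -0.49 with library size scaling.

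The member whose level is the median of those called lower in JY1605 followed the same course at lower counts. BnaA05G0234300ZS, the 1440th tested model, stood in JY1621 at 6.71, 6.96 and 9.28 TMM-scaled CPM in dry seeds, 7.08, 4.98 and 7.05 in the 8 h 8 °C libraries, and 5.24, 4.64 and 4.40 after 8 h at 25 °C. After 36 h it stood at 5.31, 4.95 and 5.82 at 8 °C and at 3.57, 3.85 and 2.40 at 25 °C. The JY1621 libraries at 36 h and 25 °C lay under all others of that genotype, and those at 8 °C overlapped with the 8 h groups. In JY1605 it stood at 6.64, 6.77 and 5.66 in dry seeds, 7.51, 5.66 and 4.97 in the 8 h 8 °C libraries, and 1.82, 2.54 and 1.60 after 8 h at 25 °C. After 36 h it stood at 2.45, 2.19 and 1.91 at 8 °C and at 0.412, 0.456 and 0.363 at 25 °C, the last on 12, 18 and 10 counts. In JY1605 the 8 h 25 °C and 36 h 8 °C libraries overlapped, and lay between the dry seeds and 36 h at 25 °C. The log2 fold change of 36 h at 25 °C over dry seeds was -1.22 ± 0.187 in JY1621 and -3.93 ± 0.254 in JY1605 (SE). With library size scaling the JY1621 value was -0.73, inside the fold minimum.

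Not every member followed the block. At 36 h and 25 °C, 645 members were called lower in both genotypes, and 168 were not called in JY1621 and lower in JY1605. Another 48 were higher in JY1621 and lower in JY1605, 10 were higher in JY1621 and not called in JY1605, and 3 were called in neither. Of all tested models, 20% were called lower and 26.2% higher in JY1621, and 24.8% lower in JY1605. Their shares in the joint classes were not counted, so these counts describe the members only. The 13 members not called lower in JY1605 had few counts, with a median level over all libraries of 0.511 TMM-scaled CPM against 4.44 among the 861 that were. Over the 3 libraries of a group, 12 of the 13 held 6 to 20 counts in JY1605 at 36 h and 25 °C and 7 to 16 in dry JY1605 seeds.

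The remaining one of these 13 was the only member with a positive fold change in JY1605 at 36 h and 25 °C, and was named after its values were seen. BnaA05G0246900ZS, the 1538th tested model, stood in JY1621 at 0.677, 0.643 and 0.979 TMM-scaled CPM at 36 h and 25 °C and at 1.45, 1.24 and 0.960 in dry seeds. In JY1605 it stood at 0.859, 0.988 and 1.27 at 36 h and 25 °C and at 0.553, 0.437 and 0.480 in dry seeds. The JY1621 groups overlapped and the JY1605 groups did not. In JY1605 at 8 h and 25 °C it stood at 0.390, 4.53 and 0.149, so replicate 2 was far above the others. It was the 1 member with a called negative difference of log2 changes at 8 h and 25 °C (7.07% of all tested models). That difference was -3.43 ± 1.14 (SE), and the call was lost without that replicate 2, among other single libraries. Its log2 fold change at 36 h and 25 °C was -0.67 ± 0.698 in JY1621 and 1.07 ± 0.820 in JY1605 (SE), and neither was called.

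The 58 members that were called higher in JY1621 at 36 h and 25 °C were lowly expressed in dry seeds. Their median dry-seed level over both genotypes was 0.425 TMM-scaled CPM, against 7.28 among the 874 members. Of these 58, 51 reached 0.531 CPM in all 3 JY1621 libraries at 36 h and 25 °C, and 3 in all 3 dry JY1621 libraries, so most passed the filter through the imbibed seeds and had to differ from dry seeds. Their summed level in JY1621 was 17.6 ± 1.27 TMM-scaled CPM in dry seeds, 80.5 ± 9.36 in the 8 h 25 °C libraries and 74.3 ± 8.20 in those of 36 h at 25 °C (SD, n = 3). In JY1605 it was 35.1 ± 3.31 in dry seeds, 45.4 ± 11.5 in the 8 h 25 °C libraries and 9.83 ± 2.21 in those of 36 h at 25 °C. In JY1605 the sum at 36 h and 25 °C was thus the lowest of the 3, as it was for the block. They were spread from the 63rd to the 857th place in the block with a median gap of 9 places, and no pair of them was adjacent.

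The direction of a member in JY1621 split by its dry-seed level. Of the 88 members under 1 CPM in dry seeds, 15 were called lower, 18 not called and 55 higher at 36 h and 25 °C in JY1621, with a median log2 fold change of 1.70. Of the 786 at or above 1 CPM, 630 were lower, 153 not called and 3 higher, with a median of -1.32. In JY1605, 75 of the 88 and every one of the 786 were called lower, with medians of -2.04 and -3.92. The dry-seed level enters both the grouping and the fold change, which alone ties low levels to higher fold changes. Over all tested models of any dry-seed level, 20% were called lower and 26.2% higher in JY1621, and 24.8% lower in JY1605. The split by dry-seed level was not made over all tested models, so it is not shown to be particular to the block.

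**Figure D4:**
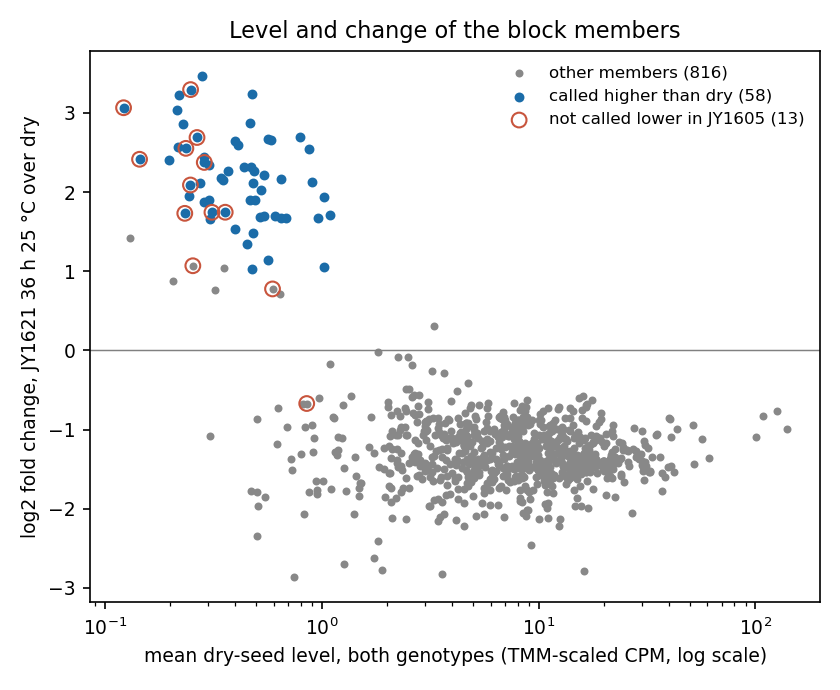
Mean dry-seed level over both genotypes (horizontal axis, TMM-scaled CPM, log scale) against the log2 fold change of 36 h 25 °C over dry seeds in JY1621 (vertical axis), 1 point per member. Blue points are the 58 members called higher, red circles the 13 not called lower in JY1605; 55 of the 58 lie under 1 CPM.

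The pair with the highest mean level among these 58, chosen after their values were seen, were also higher than dry seeds at 8 h in JY1621. They differ from the block at 36 h and 25 °C in JY1621 because they were chosen so. BnaA05G0226900ZS, the 1381st tested model, stood in JY1621 at 1.30, 1.39 and 1.07 TMM-scaled CPM in dry seeds, at 10.1, 7.14 and 7.18 in the 8 h 8 °C libraries, and at 10.5, 7.14 and 6.95 after 8 h at 25 °C. After 36 h it stood at 1.71, 2.15 and 1.33 at 8 °C and at 2.51, 2.62 and 2.62 at 25 °C. It was thus highest at 8 h, at both temperatures, with no overlap with the other JY1621 groups. In JY1605 it stood at 0.869, 1.02 and 0.480 in dry seeds, at 2.03, 2.47 and 1.96 in the 8 h 8 °C libraries, and at 2.73, 3.24 and 2.31 after 8 h at 25 °C. After 36 h it stood at 1.58, 1.95 and 0.838 at 8 °C and at 0.0344, 0.507 and 0.255 at 25 °C, the last on 1, 20 and 7 counts. Its log2 fold change at 8 h and 25 °C was 2.72 ± 0.296 in JY1621 and 1.75 ± 0.363 in JY1605 (SE), and in JY1605 it was the 1 member called higher in that comparison (24.7% of all tested models). With library size scaling 25 members were called higher there (40.9% of all tested). With JY1605 8 h 25 °C replicate 1 left out 5 members were, and 4 without replicate 3 or dry replicate 2. At 36 h and 25 °C it was 1.06 ± 0.316 in JY1621 and -1.48 ± 0.491 in JY1605. The JY1621 value was 0.93 and not called without dry replicate 3. The JY1605 value was -1.02 and not called without 36 h 25 °C replicate 1, -2.47 without replicate 2, and -0.84 and not called with library size scaling.

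BnaA05G0221600ZS, the 1339th tested model, stood in JY1621 at 0.916, 0.464 and 0.7997 TMM-scaled CPM in dry seeds, at 3.79, 2.63 and 2.90 after 8 h at 25 °C and at 3.02, 2.17 and 3.16 after 36 h at 25 °C. In JY1605 it stood at 0.869, 1.97 and 1.15 in dry seeds, at 1.43, 2.13 and 1.418 after 8 h at 25 °C and at 0.206, 0.558 and 0.473 after 36 h at 25 °C. Both imbibed groups lay above dry seeds without overlap in JY1621, and the 36 h group lay below dry seeds without overlap in JY1605. Its log2 fold change at 36 h and 25 °C was 1.93 ± 0.320 in JY1621 and -1.66 ± 0.372 in JY1605 (SE). At 8 °C in JY1621 it was 1.33 ± 0.356 after 8 h and 1.62 ± 0.329 after 36 h. In JY1605 these were 0.51 ± 0.331 and -0.0035 ± 0.317.

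The share of the block differed between libraries of a group, most of all in JY1605 at 36 h and 8 °C. There it was 0.369% in replicate 2 and 0.202% in replicate 3, a ratio of 1.82. The ratio of the highest to the lowest share was 1.40 in JY1605 at 8 h and 25 °C and 1.30 in JY1621 at 36 h and 8 °C. In the other 7 groups it ran from 1.03 to 1.19. By CPM on the library totals, without TMM factors, members were compared between the libraries with the highest and the lowest share. Of the members, 97.6% were higher in the library with the highest share in JY1605 at 36 h and 8 °C, and 55.8% in dry JY1605 seeds. These were the highest and lowest such values of the 10 groups. Picking the libraries by the share of the block sets the direction of these values in advance.

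Stretches with lower values after imbibition also lay on other chromosomes. In consecutive stretches of 50 tested models, the median log2 fold change at 36 h and 25 °C in JY1605 was at most -1 in 17 stretches of A05, 13 of A09, 5 of A06, 3 of A01 and 1 each of C01 and C08. The models of the A09 stretches had a median of -1.26 in JY1621 and -3.75 in JY1605, those of A06 -1.21 and -3.67, and those of A01 -1.09 and -3.66. The C01 stretch had -1.28 and -1.61, and the C08 stretch -0.89 and -1.55, so in JY1605 both lay nearer 0 than the block. Across the 30 libraries, the deviation of the block from its group mean correlated with that of the A09 stretches at 0.979 (Pearson), and both deviated to the same side in 29 libraries. The correlation was 0.915 with the A06 stretches, 0.893 with those of A01, 0.780 with the C08 stretch, 0.328 with that of C01, 0.377 with the rest of A05 and -0.018 with log2 total counts. The points share libraries and scaling factors, and these values are descriptions.

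The 313 untested models of the span held few counts, and were not used to set the block. Their summed level in JY1605 at 36 h and 25 °C was 1.25, 2.19 and 1.43 CPM, against 7.49, 11.4 and 7.30 CPM in dry seeds, with no overlap. In JY1621 at 36 h and 25 °C it was 9.62, 9.29 and 11.6 CPM, against 8.07, 8.21 and 10.2 CPM in dry seeds, with overlap. An exact two-sided permutation test of 3 libraries against 3 gave p = 0.1 in JY1605 and p = 0.3 in JY1621, and 0.343 for both when adjusted over the 8 such comparisons with dry seeds. The smallest p this design allows is 0.1, so no such comparison could pass 0.05. The summed level of the untested models outside the span on A05 was 90.2 ± 5.94 CPM in JY1605 at 36 h and 25 °C and 24.4 ± 1.29 CPM in dry JY1605 seeds. In JY1621 it was 43.3 ± 1.89 CPM and 29.9 ± 2.37 CPM (SD, n = 3).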

How the data were processed

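RNA sequencing counts were analysed for 30 seed libraries. The authors deposited one table of raw counts per gene model. The tools named in the submitters' processing notes are DESeq2 1.42.0, featureCounts 2.0.6 and HISAT2 2.2.1. Their settings, the strand setting, the treatment of reads that match several copies and the genome build were not given in the sources used here, so a count can hold reads of a related copy. Each count is limited by counting error, and the depth per library is given by its total.

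Differences were tested with edgeR 4.0.16 (R 4.3.3), by a robust quasi-likelihood F-test with TMM factors, in one fit of all 30 libraries with a mean per group. The filterByExpr minimum count of 10 and minimum total of 15 left the same 57945 models as the CPM rule. A model was called at a Benjamini-Hochberg adjusted p under 0.05 and a level at least 2-fold higher or lower, in 21 comparisons. The block and its lists were chosen with earlier results of these data known. Named models were the first and last member, the most abundant and the median member called lower in JY1605, and 3 added after their values were seen. The rule also asked for members called higher in JY1605 at 36 h and 25 °C, of which there were 0 with edgeR, 0 with DESeq2 and 1 with edgeR without the low-count filter. The single member with a positive fold change there, BnaA05G0246900ZS, had an edgeR adjusted p of 0.232 with the filter. Of the IDs, 0 matched the RefSeq table (123214 genes, another assembly), so no names, coordinates or sequences are given. The script was tested on simulated data in which few models changed, all above 1 CPM. That was not a test of the scaling factors or of changes at low counts. Alternatives were other scaling factors, other filters, DESeq2 1.42.0, fits of only the groups compared, a replicate block, no fold minimum and leaving out each library.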

Additional observations from a re-analysis of the deposited data

Results flagged for a closer look

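The change of the members from dry seeds differed between the genotypes, by edgeR calls on the difference itself (JY1621 minus JY1605, adjusted p under 0.05 and a difference of at least 1 on the log2 scale). The members were chosen on their change from dry seeds, which enters this difference, so these counts are descriptions. At 8 h and 25 °C, 468 members had a higher log2 change in JY1621 than in JY1605 (7.19% of all tested models) and 1 a lower one (7.07%). The 1 became 0 without JY1621 dry replicate 1, JY1621 8 h 25 °C replicate 2, JY1605 dry replicate 2 or JY1605 8 h 25 °C replicate 2. At 36 h and 25 °C, 853 had a higher change in JY1621 (18.7% of all tested). At 36 h and 8 °C, 433 did (5.76%). At 8 h and 8 °C, 1 had a higher (1.19% of all tested) and 3 a lower change in JY1621 (0.395%). The 3 became 7 without JY1621 8 h 8 °C replicate 1, 6 without JY1621 dry replicate 2 and 5 without JY1605 8 h 8 °C replicate 1. They became 1 without JY1621 8 h 8 °C replicate 2 or 3, JY1605 dry replicate 2 or JY1605 8 h 8 °C replicate 2. The level of the block moved between libraries of a group together with stretches of A09, A06, A01 and C08 (correlations of 0.979, 0.915, 0.893 and 0.780), and less so with that of C01 (0.328). The part of this in the differences was not tested.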

How the results depend on the processing

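The following values use scaling by library size alone, with the share of all tested models beside each count. Members called lower than dry seeds in JY1621 were 13 (8 h at 25 °C, 11.3%), 226 (36 h at 25 °C, 11.7%), 0 (8 h at 8 °C, 0.214%) and 24 (36 h at 8 °C, 14.6%). In JY1605 they were 433 (8 h at 25 °C, 10.8%), 17 (8 h at 8 °C, 0.307%) and 490 (36 h at 8 °C, 14.5%). Medians over dry seeds were -0.208, -0.79, 0.0061 and -0.24 in JY1621 and -1.01, -3.21, -0.033 and -1.10 in JY1605 (8 h at 25 °C, 36 h at 25 °C, 8 h at 8 °C, 36 h at 8 °C). For 8 °C over 25 °C at 8 h, 10 members were higher in JY1621 (11.8%) and 515 in JY1605 (11.1%), with medians of 0.186 and 1.05. For JY1621 over JY1605, 36 members were higher in dry seeds (12.2%), with medians of 0.101 in dry seeds and 0.203 after 8 h at 8 °C. Without a fold minimum, 623, 47 and 656 members were lower than dry seeds in JY1621 (8 h at 25 °C, 8 h at 8 °C, 36 h at 8 °C; 32%, 8.31% and 33.7% of all tested models) and 137 in JY1605 (8 h at 8 °C, 4.35%). At 8 °C over 25 °C, 455 (8 h, 29.6%) and 479 (36 h, 30.5%) were then higher in JY1621, and 135 (dry, 20.6%) and 24 (8 h at 8 °C, 20.9%) were higher in JY1621 than in JY1605. The median of JY1621 at 8 h and 25 °C was -0.78 with median-of-ratios factors and -0.78 with DESeq2, which called 15 members higher at 8 °C in JY1621 at 36 h. A minimum of 1 CPM in 3 libraries gave 0 members with a called positive difference of log2 changes at 8 h and 8 °C. Fits of only the groups compared gave 0 there too, and 0 lower than dry seeds in JY1621 at 8 h and 8 °C. As a share of TMM-scaled library size, the block held 0.864% in dry seeds, 0.747% (8 h at 8 °C), 0.536% (8 h at 25 °C) and 0.371% (36 h at 25 °C) in JY1621, and 0.850% in dry seeds, 0.752% (8 h at 8 °C) and 0.0544% (36 h at 25 °C) in JY1605. Without its 10 most abundant members it held 0.632%, 0.622%, 0.550% and 0.376% in JY1621 and 0.575%, 0.547% and 0.0569% in JY1605. By construction, a scaling factor shifts all models of a library alike and leaving out members can only lower a share. Leaving out the fold minimum can only add calls. What else bears on these moves was not tested. With 1 library left out, members higher at 8 °C in JY1621 numbered 17 to 51 (8 h) and 16 to 42 (36 h). Members higher in JY1621 than in JY1605 numbered 14 to 36 in dry seeds, 5 to 21 (8 h at 8 °C) and 266 to 736 (36 h at 8 °C). At 8 h and 8 °C, members lower than dry seeds in JY1621 numbered 0 to 4. Members with a called positive difference of log2 changes there numbered 0 to 2.

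A screen for shared deviations of libraries with the same replicate number asked for every correlation over 0.1. Of 45 pairs of groups 0 met it, and 14 of 30 libraries were closest to their own number. The screen cannot exclude a weaker shared deviation. In JY1605 at 36 h 8 °C and 8 h 25 °C and in JY1621 at 36 h 8 °C, the block's share was highest in replicate 2 and lowest in replicate 3. In the other groups the highest and lowest replicates varied. With the replicate block, 1 member was lower than dry seeds in JY1621 at 8 h and 8 °C, and no other count or median of the members moved beyond its limit. Counting error bears most on members with few counts: 12 of the 13 not called lower in JY1605 at 36 h and 25 °C held 6 to 20 counts there over 3 libraries.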
